A study of Mus musculus with 12 samples.

Results

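Immediate-early genes are the first genes that a cell transcribes when a signal reaches it, from factors that are already in place and without new protein synthesis. Here 10 of them, chosen by name, were followed in 3 tissues of mice given corticosterone (CORT, the main glucocorticoid of rodents) or vehicle: *Fos*, *Fosb*, *Jun*, *Junb*, *Egr1*, *Atf3*, *Ier2*, *Nr4a1*, *Btg2* and *Zfp36*, out of 22276 genes listed in at least 1 tissue. Every tissue listed all 10, among 22273 genes in gastrocnemius and 22252 each in liver and gonadal white adipose tissue (WAT). Under CORT, most of them were more abundant in GRmKO mice, whose muscle fibers lack the glucocorticoid receptor (GR), than in their floxed controls (GRf/f) in each tissue. Of the members above 0 in all 4 libraries of a tissue, 6 of 10 were at least 2-fold higher in gastrocnemius, 5 of 7 in liver and 7 of 10 in gonadal WAT, and 1, *Atf3* in gastrocnemius, was at least 2-fold lower. Of all genes tested, 4.4%, 2.44% and 1.43% were that much higher and 5.31%, 2.27% and 1.19% that much lower.

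The mice were males on the C57BL/6J strain, and every group carried *Nr3c1*, the GR gene, with its exon 3 flanked by loxP sites. GRf/f mice had no Cre. GRmKO mice had Cre under the *Acta1* promoter, which is active in skeletal muscle fibers, so the receptor was deleted in myofibers and was meant to remain in liver, fat and the other cells of muscle. From 8 weeks of age, mice drank 1% ethanol in water as the vehicle, or the same solution with 100 µg/mL CORT, for 4 weeks. Each combination of tissue, genotype and treatment was 1 library made from the pooled RNA of 3 mice, which gave 12 libraries and no replicates. The sources used here do not say if the pools of different tissues held the same animals. The mice were anesthetized and bled before their tissues were excised and frozen. Since each group was 1 pool, a difference between groups and a difference in how their mice were handled at collection cannot be told apart, and these genes are known to respond quickly to handling, injury and lack of oxygen. In bulk tissue, fewer cells of a type and less RNA per cell cannot be told apart either.

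Most of these genes encode regulators that act for a short time. *Fos* and *Fosb* encode proteins that pair with the products of *Jun* and *Junb* to form AP-1, a transcription factor. *Egr1*, *Nr4a1* and *Atf3* encode other transcription factors, *Ier2* a nuclear regulator, *Btg2* a brake on cell division, and *Zfp36* (tristetraprolin) a protein that binds AU-rich messages and speeds their decay. Their promoters are commonly driven by serum response factor with its ETS partners, which follow the MAP kinases, and by CREB, which follows cyclic AMP and calcium. Ligand-bound GR is known to bind AP-1 and to lower the transcription of many AP-1 targets, and GR also raises several of the inhibitors of MAP kinase signaling.

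The promoters of members that differed widely in their response are shown because these genes share upstream signals. Each sequence covers the 250 bases before the transcription start of the RefSeq gene on GRCm38.p6, written 5′ to 3′ on the strand of the gene. They lie at chr12:85473640-85473889 (*Fos*, plus strand), chr7:19310046-19310295 (*Fosb*, minus), chr15:101266596-101266845 (*Nr4a1*, plus), chr1:134079156-134079405 (*Btg2*, minus), chr7:28379229-28379478 (*Zfp36*, minus) and chr1:191183334-191183583 (*Atf3*, minus). Capitals mark the letters of the motifs described below, on either strand.
Fos: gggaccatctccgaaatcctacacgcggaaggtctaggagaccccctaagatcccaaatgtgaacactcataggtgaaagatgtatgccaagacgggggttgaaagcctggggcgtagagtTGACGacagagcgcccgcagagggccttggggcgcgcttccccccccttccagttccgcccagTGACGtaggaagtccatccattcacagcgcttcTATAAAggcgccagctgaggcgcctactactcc
Fosb: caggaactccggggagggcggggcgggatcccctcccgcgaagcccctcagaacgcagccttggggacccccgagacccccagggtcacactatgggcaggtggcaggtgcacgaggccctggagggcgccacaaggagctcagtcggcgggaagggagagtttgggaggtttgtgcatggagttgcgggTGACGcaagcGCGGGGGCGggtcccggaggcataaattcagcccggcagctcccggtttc
Nr4a1: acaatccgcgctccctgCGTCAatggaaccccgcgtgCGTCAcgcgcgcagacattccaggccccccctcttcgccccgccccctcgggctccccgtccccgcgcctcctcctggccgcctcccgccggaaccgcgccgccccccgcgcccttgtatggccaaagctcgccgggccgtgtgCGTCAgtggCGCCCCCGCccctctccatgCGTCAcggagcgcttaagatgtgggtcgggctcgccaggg
Btg2: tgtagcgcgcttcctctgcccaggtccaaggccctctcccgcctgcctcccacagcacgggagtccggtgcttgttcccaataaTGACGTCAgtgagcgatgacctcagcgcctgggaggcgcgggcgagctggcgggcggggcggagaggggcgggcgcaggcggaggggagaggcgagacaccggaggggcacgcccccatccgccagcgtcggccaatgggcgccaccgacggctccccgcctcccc
Zfp36: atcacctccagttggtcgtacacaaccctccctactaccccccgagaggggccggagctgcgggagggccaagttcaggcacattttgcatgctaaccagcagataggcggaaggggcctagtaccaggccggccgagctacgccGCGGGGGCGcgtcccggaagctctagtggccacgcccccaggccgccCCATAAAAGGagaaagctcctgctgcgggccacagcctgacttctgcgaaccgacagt
Atf3: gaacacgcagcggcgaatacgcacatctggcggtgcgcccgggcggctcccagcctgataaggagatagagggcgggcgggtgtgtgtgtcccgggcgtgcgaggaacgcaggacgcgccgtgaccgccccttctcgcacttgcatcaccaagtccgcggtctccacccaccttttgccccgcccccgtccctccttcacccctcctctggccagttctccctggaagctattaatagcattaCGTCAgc

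RefSeq promoters were matched for 8 of the 10 members, with none used for *Egr1* and *Ier2*, and exact letters were searched on both strands. TGACG, the core of the cyclic AMP response element to which CREB binds, was found in 6 of the 8, namely *Fos*, *Fosb*, *Junb*, *Atf3*, *Nr4a1* and *Btg2*, and in 17.8% of all 32851 promoters of that length. *Nr4a1* held it at 4 places. The full palindrome TGACGTCA, which contains TGACG on each strand, was found in *Btg2* only, at -166 to -159 bases from the start, and in 1.55% of promoters. GCGGGGGCG, to which EGR proteins bind, was found in *Fosb*, *Nr4a1* and *Zfp36* and in 2.57% of promoters, whereas its second form GCGTGGGCG was in none of the 8 and in 0.536% of promoters. The AP-1 element TGACTCA (4.46% of promoters) was in none of the 8, nor was its relaxed form TGANTCA (6.75%), which includes it. TATAAA was found in *Fos*, at -33 to -28, and in 12.4% of promoters, and the CArG box, to which serum response factor binds, was found in *Zfp36* and in 1.47% of promoters. The RefSeq starts lay between 27 bases downstream and 35 bases upstream of the starts of the transcripts that were counted. A match describes letters in these windows and says nothing of binding in these tissues.

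Library totals were 19394572 to 20940660 expected counts, and counts-per-million (CPM) are shares of these totals. The smallest share counted as detected was 3 counts (0.14 to 0.15 CPM). *Nr3c1* itself was at 113 CPM in vehicle-treated and 90.4 CPM in CORT-treated GRf/f gastrocnemius, and at 46.4 and 35.5 CPM in GRmKO gastrocnemius, whereas it was at 45.2 to 60.8 CPM in liver and at 111 to 158 CPM in gonadal WAT. *Fkbp5*, a direct target of GR, was at 61.9, 355, 30.0 and 20.8 CPM in gastrocnemius in the order vehicle GRf/f, CORT GRf/f, vehicle GRmKO and CORT GRmKO, and this order is kept for all values below. Marker genes matched the labelled tissues. The summed level of 5 myofiber genes was 72754 to 104419 CPM in gastrocnemius and at most 199.6 CPM elsewhere, that of 7 hepatocyte genes 77139 to 143086 CPM in liver, and that of 5 adipocyte genes 11406 to 16392 CPM in gonadal WAT.

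Levels can be compared between genes only per length of transcript. In gastrocnemius, the median over the 4 libraries was highest for *Nr4a1* at 137 CPM per kilobase, followed by *Fos* at 74.3, *Jun* at 67.9, *Junb* at 52.2 and *Egr1* at 43.2 CPM per kilobase, and lowest for *Fosb* at 6.26. In gonadal WAT and in liver the order began with *Zfp36*, at 46.0 and 30.7 CPM per kilobase. *Nr4a1*, first in gastrocnemius, was ninth in both other tissues, at 3.80 CPM per kilobase in gonadal WAT and 0.059 in liver. Neighbors in these orders overlapped in their range over the 4 libraries, with 1 exception, *Ier2* (6.29 to 12.6 CPM per kilobase) above *Btg2* (1.32 to 3.75) in liver. Most members were lower in liver than in gastrocnemius. In matched groups *Fos* was 39.2 to 126-fold and *Egr1* 7.49 to 24.4-fold higher in gastrocnemius, whereas *Zfp36* was there at 0.403 to 1.17 times its liver level.

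**Figure D1:**
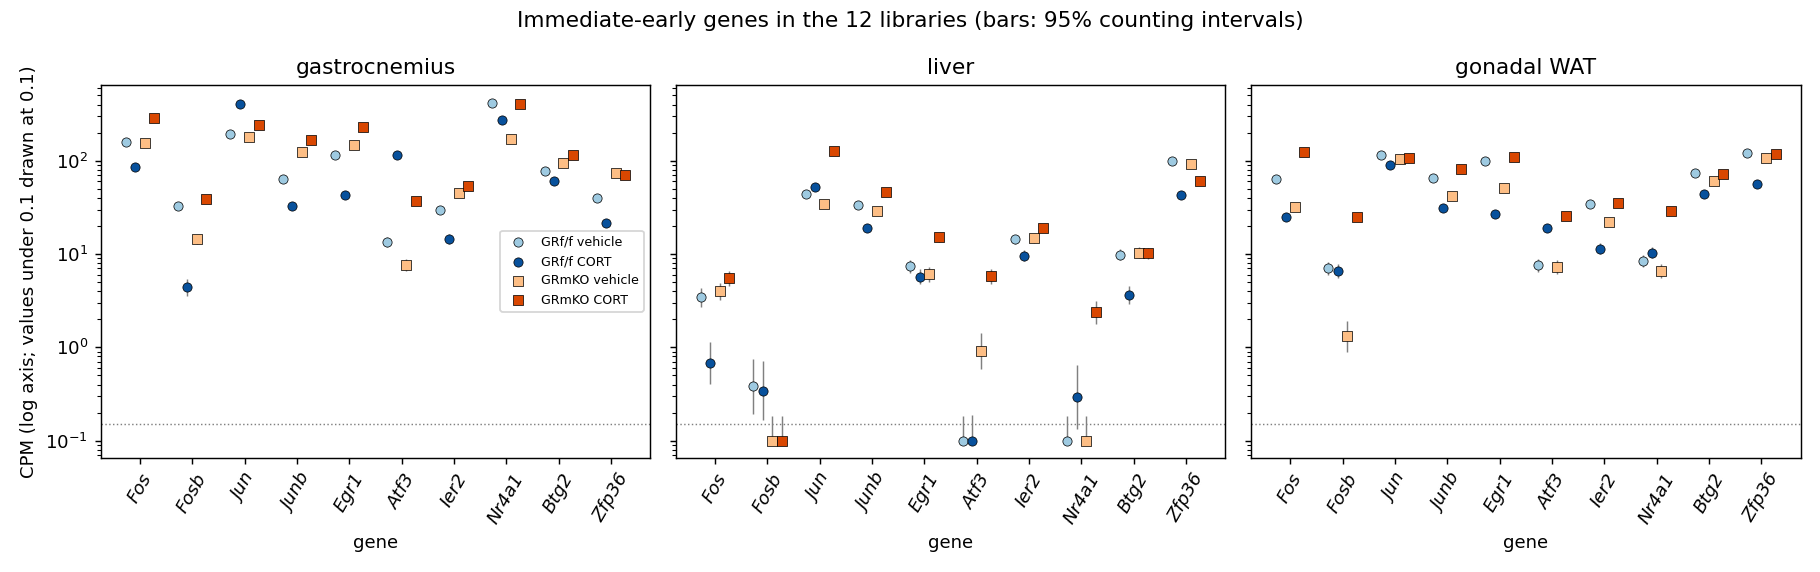
Level of each member in the 12 libraries, in CPM on a log axis, for gastrocnemius, liver and gonadal WAT. Points are single pooled libraries, bars are 95% Wilson counting intervals, the dotted line is the level of 3 counts, and values under 0.1 CPM are drawn at 0.1. The CORT-treated GRmKO library is the highest for 6 members in gastrocnemius and 7 in gonadal WAT.

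In gastrocnemius, the AP-1 members did not move as a block. *Fos* (ENSMUSG00000021250, chromosome 12, 85473890 to 85477273, 4 exons) was at 158, 86.1, 156 and 286 CPM. *Fosb* (chromosome 7, 19302696 to 19310051) was at 32.9, 4.41, 14.4 and 39.0 CPM. Both were lowest in CORT-treated GRf/f and highest in CORT-treated GRmKO muscle. *Junb* (chromosome 8, 84974484 to 84978718), whose product often opposes that of *Jun*, was at 63.8, 32.6, 125 and 166 CPM. *Jun* (chromosome 4, 95049034 to 95052222) was at 194, 406, 182 and 239 CPM. Thus *Junb* had its lowest and *Jun* its highest level in the same CORT-treated GRf/f library.

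Among the other transcription factors, *Egr1* (ENSMUSG00000038418, chromosome 18, 34859823 to 34864984, 3 exons in the counted transcript), a zinc finger factor induced by growth factors, was at 114, 42.7, 148 and 230.4 CPM. *Nr4a1* (chromosome 15, 101254269 to 101274795), an orphan nuclear receptor that responds to exercise in muscle, was at 418, 274, 169 and 405 CPM. *Atf3* (chromosome 1, 191170296 to 191218039), a factor of the stress response, was at 13.4, 116, 7.64 and 36.9 CPM. Of these 3, only *Atf3* had both CORT-treated libraries above both vehicle-treated ones, as *Jun* also did. *Nr4a1* was the only one of the 3 with its highest value in vehicle-treated GRf/f muscle. *Ier2* (chromosome 8, 84661331 to 84662852, 1 exon) was at 29.6, 14.5, 44.5 and 53.5 CPM. *Btg2* (chromosome 1, 134075170 to 134079120) was at 78.0, 60.5, 94.0 and 115 CPM, the narrowest range of the 10 in this tissue in terms of fold. *Zfp36* (chromosome 7, 28376784 to 28380253, counted on a transcript model of 1 exon) was at 40.3, 21.6, 74.1 and 70.5 CPM. *Ier2*, *Btg2* and *Zfp36* were all lowest in CORT-treated GRf/f muscle, and all 3 were higher in both GRmKO libraries than in both GRf/f libraries.

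With 1 library per group no test across mice was possible. A difference was called when the log2 change, with 0.5 CPM added to both levels, was at least 1 in size, that is 2-fold. Folds are ratios of the levels without that addition, so at low levels a fold is larger than its log2 change implies. Many of the changes below are followed by the 95% interval that counting alone allows, also without that addition. In GRf/f gastrocnemius, CORT compared with vehicle gave 2 members called higher and 3 called lower, beside 3.26% and 4.72% of the 13543 genes tested. Those higher were *Atf3*, 8.66-fold (log2 change 3.07, interval 2.93 to 3.30), and *Jun*, 2.10-fold (1.07, 1.01 to 1.12). Those lower were *Fosb*, 7.47-fold (-2.77, -3.25 to -2.58), *Egr1*, 2.67-fold (-1.41, -1.54 to -1.30), and *Ier2*, 2.04-fold (-1.01, -1.24 to -0.83). *Junb* at -0.96, *Zfp36* at -0.89 and *Fos* at -0.87 did not reach the threshold. The median log2 change of the 10 members was -0.88, against -0.08 over all genes tested.

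In GRmKO gastrocnemius the same treatment called 3 members higher and 0 lower, beside 1.51% and 5.02% of genes. These were *Atf3*, 4.83-fold (2.20, 2.02 to 2.54), *Fosb*, 2.71-fold (1.41, 1.24 to 1.64), and *Nr4a1*, 2.40-fold (1.26, with an interval that ended at 1.32). The member median was 0.52, against -0.10 over all genes. The counting interval lay above 0 for 9 of 10 members, down to a change of 0.26 for *Ier2*, the exception being *Zfp36* at -0.07 (-0.18 to 0.03). The share of all genes with such an interval was not counted. *Atf3* was therefore called higher with CORT in both genotypes.

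Between genotypes under vehicle, 0 members were called higher and 2 lower in GRmKO gastrocnemius, beside 4.59% and 3.18% of genes, namely *Nr4a1*, 2.47-fold (-1.30, -1.36 to -1.25), and *Fosb*, 2.29-fold (-1.17, -1.40 to -0.99). *Junb* had a change of 0.97 and *Zfp36* of 0.87, and *Fos* of -0.02. Under CORT, 6 members were called higher and 1 lower, beside 4.4% and 5.31% of genes. The changes were 8.84-fold for *Fosb* (3.01, 2.83 to 3.49), 5.39-fold for *Egr1* (2.42, 2.32 to 2.54), 5.10-fold for *Junb* (2.33, 2.23 to 2.47), 3.69-fold for *Ier2*, 3.32-fold for *Fos* and 3.26-fold for *Zfp36*. *Atf3* was 3.15-fold lower (-1.64, -1.78 to -1.54) and *Jun* 1.70-fold lower. The member median was 0.12 under vehicle and 1.70 under CORT, against 0.07 and 0.02 over all genes.

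**Figure D2:**
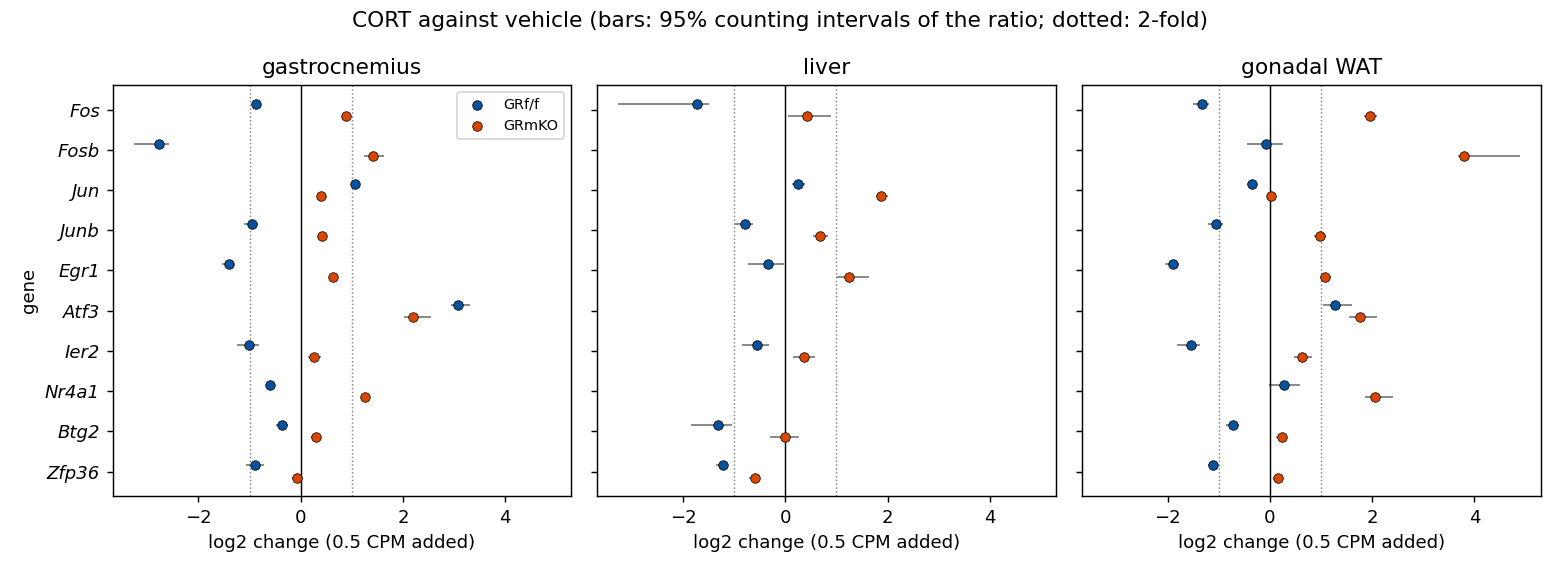
Log2 change of each member with CORT compared with vehicle, in GRf/f and in GRmKO mice, for the members above 0 in all 4 libraries of the tissue. Points include 0.5 CPM added to both levels, bars are 95% counting intervals of the ratio without that addition, and dotted lines mark 2-fold. GRmKO points lie to the right of GRf/f points except for *Jun* and *Atf3* in gastrocnemius.

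In liver, 7 of the 10 members were above 0 in all 4 libraries, and only these could be called. *Fos* was at 3.44, 0.683, 3.97 and 5.48 CPM, so that its lowest value, in CORT-treated GRf/f mice, rested on 14 counts. *Jun* was at 43.9, 52.3, 34.3 and 127 CPM. *Junb* was at 33.4, 19.1, 29.0 and 46.7 CPM. The CORT-treated GRmKO library was highest for all 3, and *Jun* differed from *Fos* and *Junb* in being lowest in vehicle-treated GRmKO liver. *Egr1* was at 7.39, 5.71, 6.06 and 15.1 CPM. *Ier2* was at 14.4, 9.57, 14.9 and 19.2 CPM. Both were again lowest with CORT in GRf/f and highest with CORT in GRmKO mice. *Btg2* was at 9.78, 3.61, 10.3 and 10.2 CPM, with 1 low library and 3 alike. *Zfp36* was at 100.1, 42.7, 91.2 and 60.1 CPM, lower in both CORT-treated libraries than in both vehicle-treated ones.

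The other 3 members were each at 0 counts in 2 of the 4 liver libraries. *Atf3* was at 0 counts in both GRf/f libraries, where 3 counts would be 0.14 to 0.15 CPM, and at 0.921 and 5.77 CPM in vehicle- and CORT-treated GRmKO liver. With 3 counts in place of 0, its level was 6.43-fold higher in GRmKO liver under vehicle and 39.4-fold higher under CORT. The counting intervals of these ratios, taken with the counts at 0, began at log2 values of 2.24 and 4.98. Within GRmKO mice CORT gave a ratio of 6.27. *Nr4a1* was at 0 in both vehicle-treated libraries, at 0.292 CPM in CORT-treated GRf/f liver and at 2.37 CPM in CORT-treated GRmKO liver. With 3 counts in place of 0, it was 2.04-fold and 16.3-fold higher with CORT, and the counting intervals began at 0.27 and 3.67. *Fosb*, for which another transcript was retained in liver, was at 0.382 and 0.341 CPM in GRf/f liver, on 8.00 and 6.99 counts, and at 0 in both GRmKO libraries. With 3 counts in place of 0, *Fosb* was 2.64-fold lower in GRmKO mice under vehicle and 2.36-fold lower under CORT. The counting intervals, taken with the counts at 0, ended at log2 values of -0.75 and -0.55. Under CORT it was the only member of the 10 with a negative change, whereas under vehicle 5 were negative and 4 positive.

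In GRf/f liver, CORT called 0 members higher and 3 lower, beside 5.9% and 5.72% of the 12485 genes tested. These were *Fos*, 5.03-fold (-1.74, -3.27 to -1.49), *Btg2*, 2.71-fold (-1.32, -1.84 to -1.05), and *Zfp36*, 2.35-fold (-1.22, -1.35 to -1.12). In GRmKO liver, CORT called 2 higher and 0 lower, beside 2.8% and 2.82% of genes, namely *Jun*, 3.71-fold (1.88, 1.77 to 2.01), and *Egr1*, 2.50-fold (1.25, 1.02 to 1.63). *Btg2* had a change of -0.01 (-0.29 to 0.27) there. Under vehicle, 0 members were called in either direction between genotypes, beside 1.26% of genes higher and 1.04% lower, and the largest changes among the 7 were those of *Jun* at -0.35 and *Egr1* at -0.27.

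Under CORT, 5 members were called higher and 0 lower in GRmKO liver, beside 2.44% and 2.27% of genes. *Fos* was 8.02-fold higher (2.34, 2.20 to 3.92), *Btg2* 2.83-fold (1.38, 1.11 to 1.90), *Egr1* 2.65-fold (1.33, 1.09 to 1.72), *Junb* 2.44-fold (1.27, 1.12 to 1.46) and *Jun* 2.43-fold (1.27, 1.18 to 1.39). *Ier2*, at 0.96, lay just under the threshold. Over the 7 members above 0 in all 4 libraries, the medians in the 4 comparisons were -0.79, 0.42, -0.13 and 1.27. Over all genes held to the same filter they were 0.00, 0.05, 0.03 and 0.07. The medians over all 10 members, with pairs at 0 in both libraries entered as no change, were -0.45, 0.55, -0.07 and 1.30. These last came out equal when members with 1 library of a pair under the floor were set at their folds over 3 counts.

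In gonadal WAT, all 10 members were above 0 in all 4 libraries. *Fos* was at 63.3, 24.8, 31.6 and 124 CPM. *Fosb* was at 7.02, 6.59, 1.34 and 25.1 CPM, with 26.5 counts behind the lowest value. *Junb* was at 65.4, 31.3, 41.4 and 81.7 CPM. *Fos* and *Junb* had their lowest value in CORT-treated GRf/f fat and their highest in CORT-treated GRmKO fat, and *Fosb* its lowest in vehicle-treated GRmKO fat. *Jun*, at 114, 89.1, 104 and 106 CPM, was the member with the smallest spread. *Egr1* was at 100.5, 26.7, 51.2 and 109 CPM. *Nr4a1* was at 8.48, 10.4, 6.61 and 29.0 CPM. *Egr1* was high in 2 libraries, those of vehicle-treated GRf/f and CORT-treated GRmKO mice, and *Nr4a1* in the second of these only.

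*Atf3* was at 7.57, 18.9, 7.24 and 25.6 CPM in gonadal WAT, with both CORT-treated libraries above both vehicle-treated ones as in gastrocnemius. *Ier2* was at 34.3, 11.4, 22.2 and 34.8 CPM. *Btg2* was at 73.1, 44.0, 61.3 and 71.9 CPM. *Zfp36* was at 121, 56.0, 107 and 119 CPM. Each of these last 3 was lowest in CORT-treated GRf/f fat, and their CORT-treated GRmKO level was close to that of vehicle-treated GRf/f fat.

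In GRf/f fat, CORT called 1 member higher and 5 lower, beside 5.49% and 8.07% of the 14218 genes tested. Those lower were *Egr1*, 3.76-fold (-1.89, -2.05 to -1.77), *Ier2*, 3.01-fold (-1.55, -1.81 to -1.37), *Fos*, 2.55-fold (-1.33, -1.50 to -1.20), *Zfp36*, 2.17-fold (-1.11, -1.22 to -1.01), and *Junb*, 2.09-fold (-1.05, -1.20 to -0.92). *Atf3* was 2.50-fold higher (1.26, 1.04 to 1.60). In GRmKO fat, CORT called 5 higher and 0 lower, beside 3.47% and 5.63% of genes. These were *Fosb*, 18.8-fold (3.80, 3.69 to 4.88), *Nr4a1*, 4.38-fold (2.05, 1.85 to 2.41), *Fos*, 3.93-fold (1.96, 1.85 to 2.10), *Atf3*, 3.53-fold (1.75, 1.55 to 2.10), and *Egr1*, 2.13-fold (1.08, with an interval that began at 0.98). The member medians were -0.89 and 1.03, against -0.07 and -0.12 over all genes.

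Under vehicle, all 10 members had a negative change in GRmKO compared with GRf/f fat, but 0 were called higher and 1 lower, beside 1.07% and 1.15% of genes. The 1 called was *Fosb*, 5.24-fold lower (-2.03, -3.08 to -1.80), and *Fos* at -0.99 and *Egr1* at -0.97 lay just short of the threshold. Under CORT all 10 had a positive change, and 7 were called higher and 0 lower, beside 1.43% and 1.19% of genes. *Fos* was 5.01-fold higher (2.30, 2.19 to 2.47), *Egr1* 4.07-fold (2.01, 1.89 to 2.17), *Fosb* 3.81-fold (1.85, 1.66 to 2.22), *Ier2* 3.05-fold, *Nr4a1* 2.80-fold, *Junb* 2.61-fold and *Zfp36* 2.13-fold. The member medians were -0.48 under vehicle and 1.41 under CORT, against 0.02 and -0.03 over all genes.

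**Figure D3:**
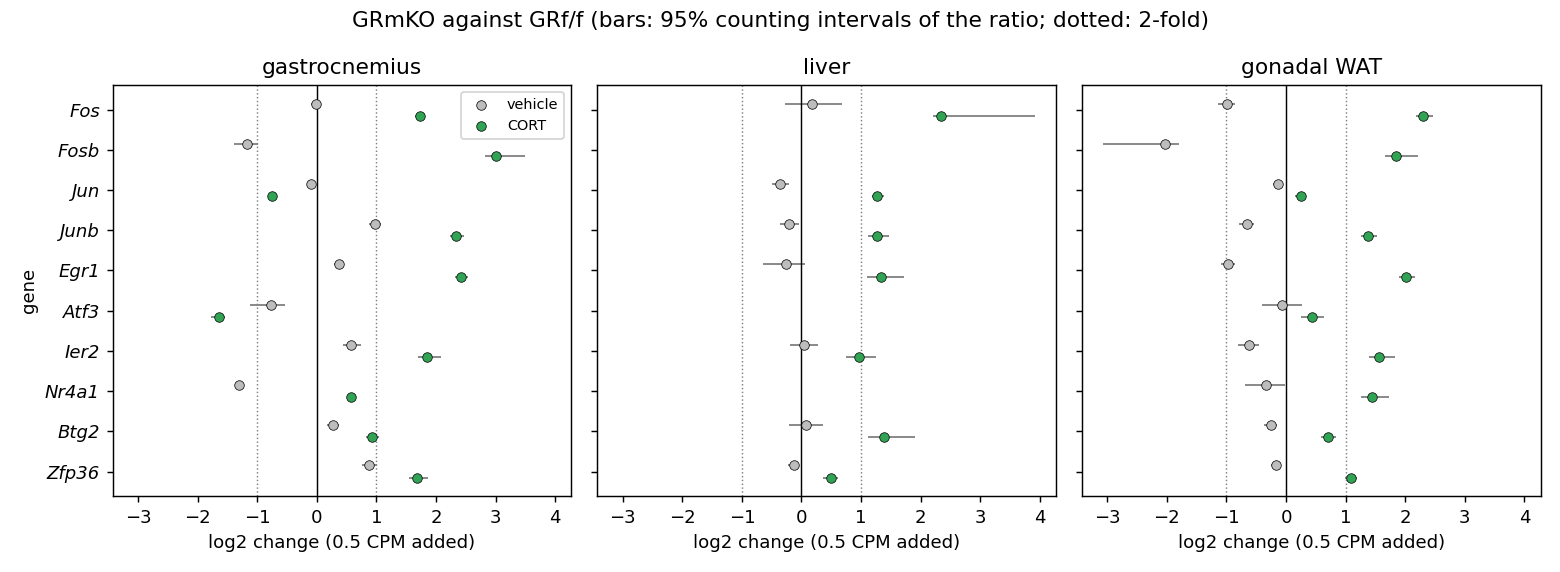
Log2 change of each member in GRmKO compared with GRf/f mice, under vehicle and under CORT, for the members above 0 in all 4 libraries of the tissue. Points include 0.5 CPM added to both levels, bars are 95% counting intervals of the ratio without that addition, and dotted lines mark 2-fold. In gonadal WAT the vehicle points all lie below 0 and the CORT points all above it.

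The 4 comparisons of a tissue share libraries, and the CORT-treated GRf/f library enters both the CORT change in GRf/f mice and the genotype change under CORT. The difference between the CORT changes of GRmKO and GRf/f mice uses each of the 4 libraries once. It was positive for 8 of 10 gastrocnemius members and for 10 of 10 in gonadal WAT, with medians of 1.32 and 1.90 on the log2 scale, against -0.05 and -0.05 over all genes. In liver it was positive, at 0.62 to 2.15, for the 7 members above 0 in all 4 libraries, and the other 3 members, with libraries at 0, have no ratio of ratios. The 2 exceptions were *Atf3* (-0.87) and *Jun* (-0.67) in gastrocnemius. The interval of the ratio of ratios, from counting alone, was -1.15 to -0.53 for *Atf3* and -0.75 to -0.59 for *Jun*.

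*Fosb* differed most, by 4.18 in gastrocnemius (ratio of ratios 4.34, interval 3.96 to 4.72) and by 3.88 in gonadal WAT (4.32, 3.66 to 4.98). For *Fos* the differences were 1.75 in gastrocnemius, 2.15 in liver and, for fat, 3.29. *Egr1* differed by 2.04, 1.60 and 2.97 in the same order. *Jun* differed by 1.63 in liver and by 0.38 in gonadal WAT, so that its sign in gastrocnemius was not that of the other tissues. Values lower with CORT in GRf/f and higher with CORT in GRmKO mice were found for 7 gastrocnemius members, 4 liver members and 8 members in gonadal WAT. Over all genes tested the corresponding shares were 18.3%, 20.8% and 10.5%. A difference of at least 1 was found for 6 of 10 gastrocnemius members, 5 of the 7 liver members above 0 throughout and 7 of 10 members in gonadal WAT, and for 4.13%, 4.76% and 3.64% of genes.

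**Figure D4:**
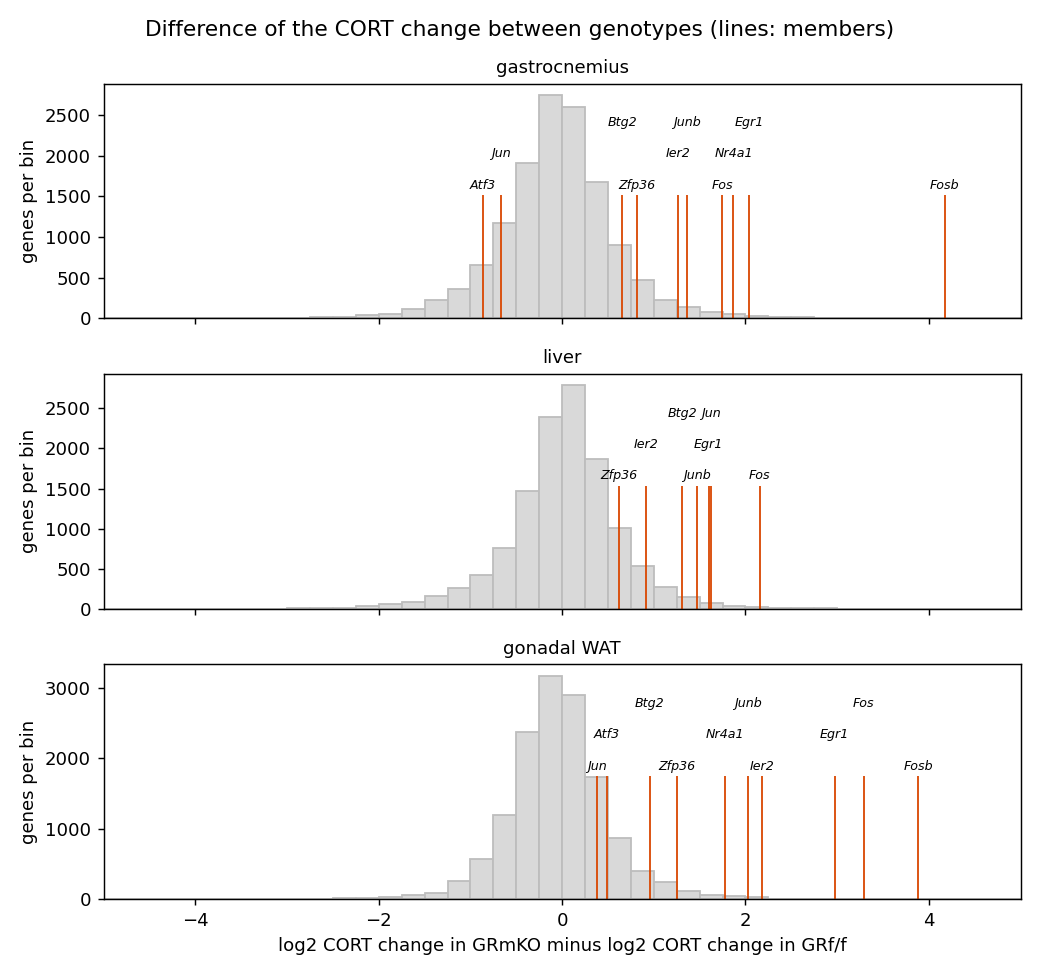
Distribution over all genes tested of the log2 CORT change in GRmKO mice minus that in GRf/f mice, in bins of 0.25, with the members above 0 in all 4 libraries as lines. The horizontal axis runs from -5 to 5, which leaves out 1 gene in gonadal WAT. *Fosb* is the farthest member to the right in gastrocnemius and gonadal WAT, and *Jun* and *Atf3* are the 2 below 0.

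The wider early-response program and the signals above it were counted in the same way. For the lists that follow, the shares of all genes called in GRmKO mice under CORT were 4.4%, 2.44% and 1.43% higher in gastrocnemius, liver and gonadal WAT. Those called lower were 5.31%, 2.27% and 1.19%. Of 18 AP-1 relatives and other early transcription factors, 15 were above 0 in all gastrocnemius libraries, 12 in liver and 17 in gonadal WAT, and under CORT those called higher and lower in GRmKO mice were 3 and 1, 3 and 1, and 0 and 1. In gastrocnemius, *Egr2*, a relative of *Egr1*, was at 3.21, 0.926, 3.05 and 5.56 CPM, lowest with CORT in GRf/f muscle and highest with CORT in GRmKO muscle, as *Egr1* was. *Nr4a3*, a relative of *Nr4a1*, was at 14.6, 49.3, 3.75 and 32.9 CPM, high in both CORT-treated libraries. *Klf10*, a factor induced by transforming growth factor beta, was at 9.53, 65.9, 18.4 and 31.8 CPM, and was highest in the CORT-treated GRf/f library where most members were lowest. In liver *Klf10* was at 9.94, 30.9, 7.30 and 42.7 CPM, high in both CORT-treated libraries. *Csrnp1* was at 11.0, 2.80, 13.2 and 8.10 CPM there, lowest with CORT in GRf/f mice as most members were. In gonadal WAT *Fosl1*, another AP-1 subunit, was at 0.852, 10.5, 1.06 and 5.69 CPM, and unlike *Fos* was high in both CORT-treated libraries. *Egr2* was at 2.46, 6.63, 2.33 and 10.7 CPM there, also high in both CORT-treated libraries, and so unlike *Egr1* in this tissue.

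Of 18 other early-response genes 16 were listed, of which 16, 15 and 16 were above 0 in all libraries of gastrocnemius, liver and gonadal WAT, and under CORT 1, 2 and 0 were called higher and 1, 0 and 0 lower in GRmKO mice. *Socs3*, which restrains cytokine signaling, was at 15.3, 12.8, 33.9 and 64.9 CPM in gastrocnemius. Of 17 upstream factors, which include *Srf*, *Creb1* and the MAP kinases, 15 were listed, and 1 call was made in 12 comparisons, that of *Crtc2*, a coactivator of CREB, named after its values were seen. It was at 28.4, 13.0, 22.8 and 22.0 CPM in liver, lower with CORT in GRf/f mice. Of 12 genes that feed back on MAP kinases, 0, 1 and 1 were called higher and 0, 1 and 0 lower in GRmKO mice under CORT. *Dusp1*, the MAP kinase phosphatase that glucocorticoids are known to raise, was at 171, 67.1, 165 and 143 CPM in gonadal WAT, where its lowest library was that of CORT-treated GRf/f mice, as for most members. Others of these genes moved with CORT in both genotypes there, *Dusp10*, a further MAP kinase phosphatase, at 20.5, 66.6, 13.7 and 47.3 CPM and *Spry1*, an inhibitor of growth factor signaling, at 23.8, 7.48, 31.1 and 10.4 CPM. Of 7 genes of the integrated stress response, to which *Atf3* belongs as a target, 1, 0 and 1 were called higher and 0 lower in that comparison, with *Chac1* at 67.3, 24.1, 30.6 and 95.3 CPM in gastrocnemius. Of 6 glucocorticoid-response genes, 1, 0 and 0 were called higher and 2, 0 and 0 lower.

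Transcripts of red blood cells were higher in GRmKO than in GRf/f mice under CORT, as most members were. The summed level of 5 of them (*Hba-a1*, *Hba-a2*, *Hbb-bs*, *Hbb-bt* and *Alas2*) was 799, 774, 1332 and 2477 CPM in gastrocnemius, 1020, 446, 663 and 1120 CPM in liver, and 4375, 2155, 4441 and 5674 CPM in gonadal WAT. Under CORT, 5, 4 and 5 of the 5 were called higher in GRmKO than in GRf/f mice, beside 4.4%, 2.44% and 1.43% of genes. Their summed level was 3.20-fold, 2.51-fold and 2.63-fold higher. The likeness did not hold in every comparison. With CORT in GRf/f gastrocnemius the sum was 0.97-fold, against a member median of -0.88. Under vehicle it was 1.67-fold in GRmKO gastrocnemius and 1.02-fold in GRmKO fat, against member medians of 0.12 and -0.48. *Hba-a1* and *Hba-a2* are nearly identical, so reads may be shared between them. The part of blood content in the member values was not tested.

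Heat shock transcripts moved the other way between genotypes under CORT. There 0 of 8 were called higher and 3, 2 and 1 lower in GRmKO gastrocnemius, liver and gonadal WAT, beside 5.31%, 2.27% and 1.19% of genes lower. With CORT in GRf/f mice 5, 8 and 5 of 8 were called higher and 0 lower, beside 3.26%, 5.9% and 5.49% of genes higher. In GRmKO mice CORT called 3, 2 and 1 higher and 0 lower, beside 1.51%, 2.8% and 3.47% of genes higher. Members too were only called higher there. *Hspa1b*, a chaperone with a near-identical copy in *Hspa1a*, was at 29.5, 733, 13.7 and 119 CPM in gastrocnemius, at 19.2, 201.2, 43.8 and 70.8 CPM in liver and at 17.4, 60.8, 32.6 and 51.1 CPM in gonadal WAT. The library in which *Hspa1b* was highest, that of CORT-treated GRf/f mice, was the lowest for 7 of 10 members in gastrocnemius, 6 of 7 in liver and 7 of 10 in gonadal WAT. In gastrocnemius it was also the highest for *Jun* and *Atf3*.

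Markers of other cells varied between libraries too, and their part in the member values was not tested. In gastrocnemius, the sum of 7 hepatocyte genes was 20.5, 155, 99.3 and 369 CPM, with 5 called higher in GRmKO mice under CORT, beside 4.4% of genes. Of that sum *Hp*, which fat also expresses, made up 14.6, 145.6, 21.1 and 100.7 CPM and the other 6 genes 5.97, 9.03, 78.1 and 268 CPM, so that *Hp* was high with CORT in both genotypes and the sum of the other 6 was higher in both GRmKO libraries than in both GRf/f libraries. Also in gastrocnemius, the sum of 5 macrophage genes was 113, 116, 408 and 156 CPM, and that of 5 fibroblast genes 1120, 496, 1781 and 713 CPM. That of 5 endothelial genes was 216 to 290 CPM. The 5 adipocyte genes summed to 96.1, 295, 83.5 and 188 CPM there, higher with CORT in both genotypes, as *Atf3* and *Jun* were. In liver, macrophage genes summed to 130, 34.6, 98.1 and 56.9 CPM, endothelial genes to 42.7 to 62.3 CPM, fibroblast genes to 110 to 146 CPM, myofiber genes to 0.048 to 5.26 CPM and adipocyte genes to 0.635 to 3.10 CPM, with *Lep* under the floor in all 4. In gonadal WAT, endothelial genes summed to 643, 253, 583 and 359 CPM, lowest with CORT in GRf/f mice as the mean of the members was, macrophage genes to 763, 1841, 968 and 1838 CPM, fibroblast genes to 1583 to 1929 CPM and hepatocyte genes to 1953 to 7192 CPM, nearly all of it *Hp*. Neutrophil genes summed to at most 5.65 CPM in any library, with *Ly6g* under the floor in gastrocnemius and gonadal WAT and *Retnlg* in liver.

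Genes with the pattern most like that of the members were sought over the 12 libraries among 6725 genes of at least 5 CPM on average in each tissue, by the root-mean-square difference between their centered log2 levels and the mean of the 10 members. A gene with no variation would be at 0.49. The 5 closest were *Hba-a2* at 0.32, *Cpne2* at 0.33, *Nudt8*, *Chchd7* and *Jund* at 0.34. *Jund*, the remaining JUN family member, was at 135, 95.8, 134 and 143 CPM in gastrocnemius, lowest with CORT in GRf/f muscle, though with a narrower range than *Junb*. The members themselves ranged from *Btg2* at 0.34 and *Ier2* at 0.35 to *Fosb* at 0.87 and *Atf3* at 1.19, and 5 of the 10 (*Atf3*, *Fosb*, *Jun*, *Nr4a1* and *Zfp36*) were farther from the mean of their own group than a flat gene would be. The mean of the members was lowest in the CORT-treated GRf/f library, at -0.53, -0.60 and -0.50 in gastrocnemius, liver and gonadal WAT, and highest in the CORT-treated GRmKO library, at 0.68, 0.78 and 0.80.

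**Figure D5:**
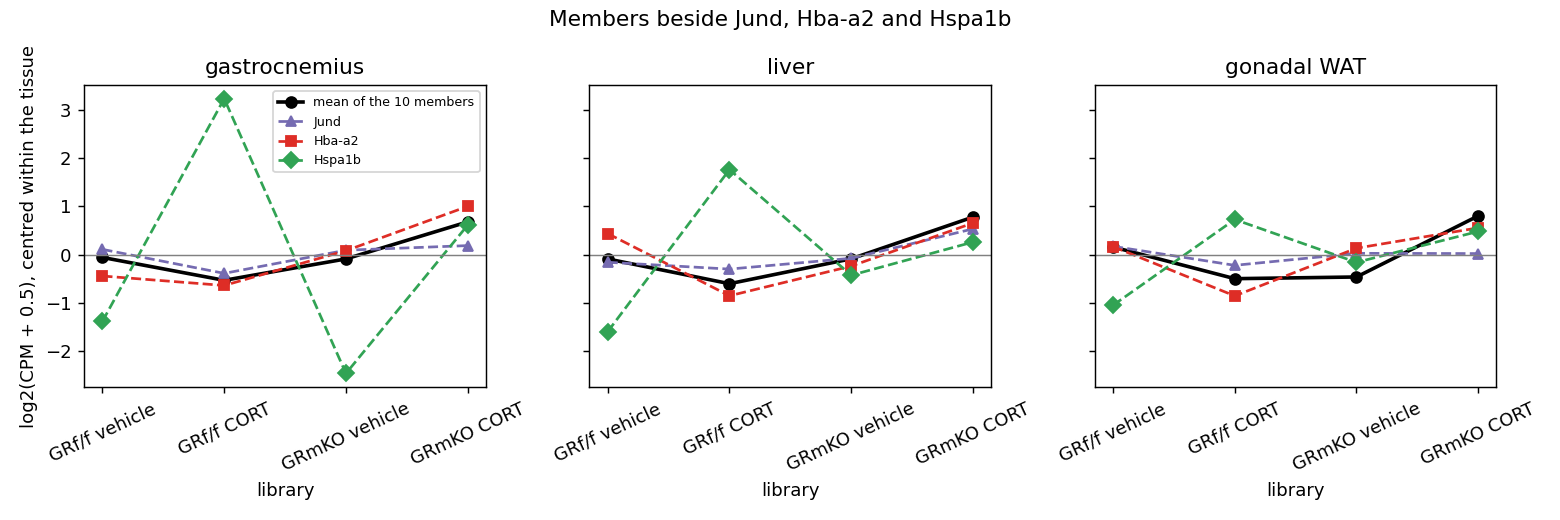
Mean centered log2(CPM + 0.5) of the 10 members in each library, beside *Jund*, *Hba-a2* and *Hspa1b*, with lines joining the 4 libraries of a tissue for reading only. The members and *Hba-a2* are lowest and *Hspa1b* is highest in the CORT-treated GRf/f library of every tissue.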

How the data were processed

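RNA-seq of 12 pooled libraries was analysed. Per the study's methods and the submitters' notes, the authors quantified paired reads of 100 bases with Salmon 1.2.1 on GENCODE M20 protein-coding transcripts (mm10), imported them in R 3.5.0 with tximport (lengthScaledTPM) and kept, for a repeated gene symbol, the entry with the largest total. The deposited values are therefore expected counts, not scaled between libraries. Each entry bears 1 transcript identifier, and whether reads were first summed over a gene was not settled, so a value may cover part of a gene. *Fosb* was kept on another transcript in liver than in the other tissues.

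Counts were divided by the library total to give CPM. Log2 changes used 0.5 CPM added to both sides, and folds did not. A gene was tested where none of a tissue's 4 libraries had it at 0, and a 2-fold change was called. Wilson intervals of CPM, exact Clopper-Pearson intervals of ratios (without the 0.5 CPM) and delta-method Poisson intervals of differences (95%) used rounded counts, and with the floor of 3 counts they cover counting error only, not the spread between mice or pools or read assignment. No p-value is given, since each group had 1 library. NOISeq, the authors' method, was not run because it rests on simulated samples. Positions and exons came from GENCODE M21 (GRCm38), promoters from RefSeq (GRCm38.p6).

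The members and the 15 other gene lists were chosen with earlier results of these data known. All members are given in every library. Other genes could be named if called in at least 2 of the 4 comparisons of a tissue (at most 3 per list and tissue), and not all that qualified are named, besides the 5 most alike genes, *Fkbp5* and *Hspa1b*, and *Nr3c1* as the targeted gene. Alternatives were 0.1 or 1 CPM added, TMM (edgeR 4.0.16) or median-of-ratios (DESeq2 1.42.0) factors, no filter, a 3-fold threshold, and intervals wholly past 2-fold. Scripts ran in Python 3.11.15 with numpy 2.4.6, scipy 1.17.1 and pandas 2.3.3 and were tested on simulated data.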

Additional observations from a re-analysis of the deposited data

Results flagged for a closer look

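Members whose CORT change had opposite signs in the 2 genotypes, with counting intervals on either side of 0, are listed here. Each genotype had 1 library per treatment, so these differences (CORT change in GRmKO minus that in GRf/f, log2) were not tested against the spread between mice. The difference between the 2 genotypes' medians over all 10 members was 1.40 for gastrocnemius, 1.00 for liver and 1.92 for gonadal WAT. In gastrocnemius 7 members were concerned, *Fosb* with 4.18, *Egr1* with 2.04, *Nr4a1* with 1.87, *Fos* with 1.75, *Junb* with 1.36, *Ier2* with 1.27 and *Btg2* with 0.66. In liver there were 4, *Fos* with 2.15, *Egr1* with 1.60, *Junb* with 1.47 and *Ier2* with 0.92. In gonadal WAT there were 6, *Fos* with 3.29, *Egr1* with 2.97, *Ier2* with 2.18, *Junb* with 2.02, *Zfp36* with 1.26 and *Btg2* with 0.96. All of these were lower with CORT in GRf/f and higher in GRmKO mice. Over all genes tested, 18.3%, 20.8% and 10.5% had these signs, without the condition on the intervals. The share of genes that also met that condition was not counted.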

How the results depend on the processing

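No paired analysis was possible because each group had 1 library and the labels carry no replicate numbers, and for the same reason no library could be left out of a group. No median of the members changed sign under any alternative tried. With 0.1 or 1 CPM added, all 24 member counts stayed within 1.5 times. For the member counts below, at another threshold, interval rule, filter or scaling, the share of all genes at that setting was not counted. With a 3-fold threshold, the members called with CORT were 1 higher and 1 lower in GRf/f gastrocnemius, 1 higher in GRmKO gastrocnemius, 1 lower in GRf/f liver, 1 higher in GRmKO liver, and 0 higher and 1 lower in GRf/f fat. At that threshold 0 were lower in GRmKO gastrocnemius under vehicle, and 1 in liver and 3 in gonadal WAT were higher in GRmKO mice under CORT. When the whole interval had to lie past 2-fold, 1 member was lower in GRmKO gastrocnemius under vehicle. Without the filter, 4 members were higher with CORT in GRmKO liver and 1 was higher in GRmKO liver under vehicle, since *Atf3* and *Nr4a1* then counted. With TMM or median-of-ratios factors, 2 members were lower in GRmKO fat under vehicle. The 1 member value of 120 that changed sign was that of *Zfp36* with CORT in GRmKO gastrocnemius, from -0.07 to 0.08 and 0.07 under these factors, which moved the median of all genes by 0.14 and 0.13 in that comparison. Among genes of at least 10 CPM on average, 2.87% of the gastrocnemius set, 1.5% of the liver set and 0.599% of the fat set were called higher in GRmKO mice under CORT. In liver *Fosb*, *Atf3* and *Nr4a1* were each at 0 in 2 of 4 libraries, so that some of their folds use 3 counts in place of 0. With 1 pool per group nothing here bears on variation between mice.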
